A study of Homo sapiens with 4 samples.

Results

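The HOX genes of 2 human liver cancer cell lines are described here, as transcript levels in FPKM (fragments scaled by gene length and by library depth). Members were all rows whose gene name is HOX followed by a cluster letter A to D and a number, which gave 39 of the 58174 genes listed. They comprised 11 genes of the HOXA cluster on chromosome 7, 10 of HOXB on chromosome 17, 9 of HOXC on chromosome 12 and 9 of HOXD on chromosome 2. LM3 is labelled as a hepatocellular carcinoma line and RBE as an intrahepatic cholangiocarcinoma line. Both were lipofected either with si-FENDRR, a small interfering RNA whose target is FENDRR, a long noncoding RNA, or with the negative control si-NC, and were collected after 48 h. Each line and transfection had 1 library, so that the series holds 4 libraries. The labels give no more on the origin or passage of the lines.

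HOX genes encode transcription factors that bind DNA through a homeodomain and give cells of the embryo their position along the body axis. Genes with low numbers lie at the 3' end of a cluster and act toward the head, and those with high numbers lie at the 5' end and act toward the tail and in the limb and urogenital tract. Genes with the same number in different clusters are paralogs, copies from ancient duplications of a single cluster. Adult tissues and the tumours that arise from them often keep part of the HOX pattern of their region of origin.

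The FPKM carry no read counts, so that the depth is unknown and no detection floor can be given, and a gene listed at 0 may also be a failed estimate. Between 13437 and 13682 genes reached an FPKM of 1 per library, with a median of 7.54 to 8.55 FPKM among these. FENDRR was listed at 0 in all 4 libraries, and the transfections are compared by label alone. Pearson r of log2(FPKM + 1) across 15930 genes was 0.982 between the LM3 libraries, 0.985 between the RBE libraries and 0.784 to 0.786 between lines, where genes are not independent replicates. The labelled cell types were met in part: RBE carried the biliary keratin gene KRT7 at 429 and 391 FPKM, with 7.21 and 6.02 in LM3, and LM3 carried ALB and AFP, but the hepatocyte genes APOA1, APOA2 and APOC3 were under 1 FPKM in all 4 libraries. By limma, 5 of 10 tested hepatocyte markers were called higher in LM3 and 3 in RBE. Of 9 tested cholangiocyte markers, 8 were called higher in RBE and 1 in LM3. Over all genes tested, 32.3% were called higher in LM3 and 26.4% in RBE. Of 5 leukocyte markers 1 reached 1 FPKM, as did 1 of 4 endothelial and 4 of 5 fibroblast markers. Summed FPKM of the leukocyte markers were 0.280 to 0.300 in LM3 and 12.63 to 12.95 in RBE, nearly all of it LYZ, with the pan-leukocyte gene PTPRC at 0 in LM3 and at most 0.130 in RBE. Those of the fibroblast markers were 27.0 to 30.4 in LM3, most of it LUM (0 in RBE), and 6.54 to 7.09 in RBE. By limma, 2 of the 4 tested fibroblast markers were called higher in LM3 and 2 in RBE. PDGFRA was at 4.11 and 4.08 FPKM in RBE (0 in LM3), and COL1A1 at 2.94 and 2.45 (at most 0.0632 in LM3). Summed FPKM of the endothelial markers were 3.94 to 4.40 in LM3 and 0.493 to 0.544 in RBE, most of it PECAM1. The part of other cells in the differences below was not tested, and in bulk RNA fewer cells with a transcript cannot be told apart from less of it per cell.

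RefSeq promoter sequences on GRCh38.p14, 250 bases before to 50 bases after a transcript start, were at hand for 20 of the 39 members, as 27 sequences. HOXC4 and HOXC5 are listed with the same sequence, which was counted for each of them. The first sequences shown are those of HOXA2 and of the far upstream start of HOXA3, because both genes were high in LM3 and near 0 in RBE. HOXA2 lies at chr7:27102634-27102933 on the minus strand and this HOXA3 start at chr7:27152534-27152833 on the minus strand, and capitals mark matches to 4 motifs on either strand.
HOXA2: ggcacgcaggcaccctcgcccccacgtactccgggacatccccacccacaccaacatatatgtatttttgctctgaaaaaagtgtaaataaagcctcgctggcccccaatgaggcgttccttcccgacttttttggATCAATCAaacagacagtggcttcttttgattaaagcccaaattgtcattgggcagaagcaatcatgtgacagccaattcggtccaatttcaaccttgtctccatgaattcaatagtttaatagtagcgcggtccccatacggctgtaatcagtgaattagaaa
HOXA3: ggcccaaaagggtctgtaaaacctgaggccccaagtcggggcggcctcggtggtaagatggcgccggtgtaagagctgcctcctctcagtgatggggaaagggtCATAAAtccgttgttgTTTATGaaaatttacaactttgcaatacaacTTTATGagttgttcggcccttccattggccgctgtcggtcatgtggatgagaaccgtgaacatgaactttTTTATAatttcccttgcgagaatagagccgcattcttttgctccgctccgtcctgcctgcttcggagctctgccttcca
The motifs were TTTATG, a core of sites bound by CDX factors, TGATNNAT, a core of joint PBX and HOX sites, AGGTCA, the core of retinoid receptor sites, and the TATA box TATAAA. HOXA2 held 1 match to TGATNNAT, and HOXA3 held 3 matches to TTTATG and 1 to TATAAA, with 0 bases shared between matches. RefSeq lists 7 HOXA3 starts, and the one shown is the farthest upstream and was chosen because it holds matches: the other 6 hold none of the 4 motifs, with 0 to 29 CG dinucleotides. Over all 35116 RefSeq promoters of this length, TTTATG was found in 10.6%, TGATNNAT in 7.4%, AGGTCA in 13.8% and TATAAA in 11.5%. Among the 27 HOX sequences these were found in 3, 3, 0 and 5. A match describes letters and not a bound site, and which HOXA3 start was used cannot be read from values per gene.

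HOXA13 and HOXD1 are shown as promoters rich in CG dinucleotides, which are in capitals, 1 of a gene seen in LM3 alone and 1 of a gene that reached at most 0.165 FPKM. HOXA13 lies at chr7:27200042-27200341 on the minus strand and HOXD1 at chr2:176188418-176188717 on the plus strand.
HOXA13: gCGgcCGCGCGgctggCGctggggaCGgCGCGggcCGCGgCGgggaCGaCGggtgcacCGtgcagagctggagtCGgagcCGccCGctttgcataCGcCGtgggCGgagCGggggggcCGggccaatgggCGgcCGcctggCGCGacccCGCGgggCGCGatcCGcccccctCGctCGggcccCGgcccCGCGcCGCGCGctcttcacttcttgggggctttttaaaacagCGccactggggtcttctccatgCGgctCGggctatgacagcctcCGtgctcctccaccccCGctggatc
HOXD1: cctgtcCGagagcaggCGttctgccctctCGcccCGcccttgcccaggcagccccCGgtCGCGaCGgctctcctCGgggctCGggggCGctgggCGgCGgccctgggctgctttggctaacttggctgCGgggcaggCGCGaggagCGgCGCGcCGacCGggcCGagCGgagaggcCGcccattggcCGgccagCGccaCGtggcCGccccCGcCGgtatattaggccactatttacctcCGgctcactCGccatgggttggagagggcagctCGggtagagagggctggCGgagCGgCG
The 300 bases held 44 CG in HOXA13 and 36 in HOXD1, against 15 in the HOXA3 start and 11 in HOXA2 above. The median was 22 over the 27 HOX sequences and 14 over all promoters. Both promoters were picked for their many CG, so their counts are a description only.

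LM3 expressed genes of the HOXA, HOXB and HOXC clusters, RBE mainly HOXB genes, and no HOXD gene passed 0.189 FPKM in any library. Of the 39 members, 15 reached an FPKM of 1 in any LM3 library and 4 of those also in an RBE library. A further 17 were above 0 but stayed under 1, and 7 were listed at 0 in all 4 libraries. The highest member was HOXA3 in LM3, at 14.4 FPKM with si-FENDRR and 13.8 with si-NC, above 64.8% and 63.5% of the genes at 1 FPKM or more. In RBE it was HOXB3, at 5.53 and 5.21, above 41.3% and 39.9% of such genes. Values below are given in the order si-FENDRR and then si-NC.

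**Figure D1:**
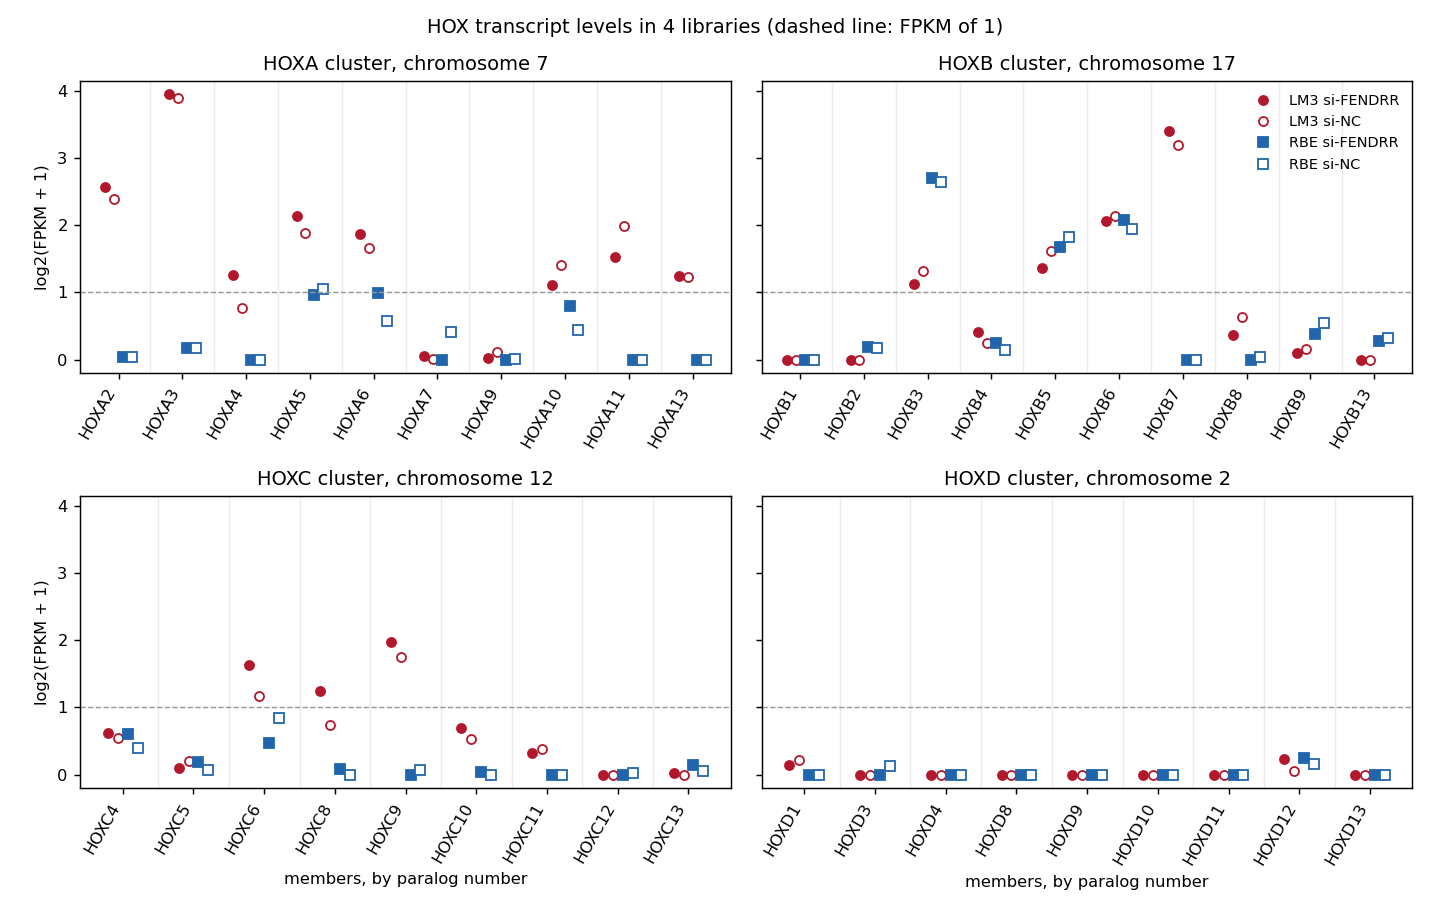
Levels of members of the 4 clusters as log2(FPKM + 1) by cluster and paralog number, with 1 point per library, circles for LM3, squares for RBE, filled for si-FENDRR and open for si-NC, and a dashed line at 1 FPKM. The HOXA panel holds LM3 points up to 14.4 FPKM with RBE near 0 outside HOXA5, HOXA6, HOXA7 and HOXA10, HOXB3 is higher in RBE and HOXB7 is seen in LM3 alone, and the HOXD panel is flat.

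In the HOXA cluster, 8 of 11 members reached 1 FPKM in LM3 and 1 in RBE. In LM3 the 3' genes HOXA3 and HOXA2 were the highest, but HOXA4 lay below HOXA5, HOXA6 and HOXA11. HOXA3 (chr7:27106184-27152581 on hg38, minus strand), which patterns the neck and the pharyngeal organs, was at 0.121 and 0.127 FPKM in RBE, far below the LM3 values given above. HOXA2, a determinant of the hindbrain and the second pharyngeal arch, was at 4.92 and 4.23 FPKM in LM3, against 0.0215 and 0.0231 in RBE. HOXA4 was at 1.40 and 0.702 in LM3 and listed at 0 in both RBE libraries. For HOXA2, HOXA3 and HOXA4 both LM3 libraries lay above both RBE libraries, as for 44.3% of all genes tested.

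In the middle of the cluster RBE carried HOXA5 and HOXA6 at lower levels than LM3, and nearer the 5' end also HOXA10. HOXA5, which acts in lung and gut development, was at 3.38 and 2.68 FPKM in LM3, against 0.937 and 1.07 in RBE. HOXA6 was at 2.66 and 2.17 in LM3, against 0.991 and 0.488 in RBE. HOXA7, next in the row, was low in both lines, with 0.042 and 0.00035 in LM3, against 0 and 0.332 in RBE, and HOXA9 was at most 0.0858 in LM3 and 0.00086 in RBE. In LM3 both genes lay below all other HOXA members described here, and in RBE with si-NC HOXA7 was close to HOXA10.

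At the 5' end LM3 again carried transcripts. HOXA10, which acts in the uterus and in the lumbar region, was at 1.16 and 1.65 FPKM in LM3, against 0.728 and 0.359 in RBE. HOXA11, a limb and urogenital gene, was at 1.88 and 2.97 in LM3 and listed at 0 in both RBE libraries. HOXA13, the most 5' gene, which patterns digits and the hindgut, was at 1.36 and 1.34 in LM3 and at 0 in RBE. HOXA10, HOXA11 and HOXA13 did not overlap between the lines, with LM3 above, as for 44.3% of all genes tested. Of these only HOXA10 kept a low level in RBE. HOXA9 shares 15.9% of its exon bases with the gene model AC004080.3 and MIR196B, and HOXA10 shares 9.9% with AC004080.3. Reads of these bases may have been divided between the genes that share them.

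The HOXB cluster was expressed in both lines through its middle genes. HOXB6 was at 3.17 and 3.38 FPKM in LM3, against 3.23 and 2.83 in RBE, and these ranges overlapped. HOXB5 was at 1.58 and 2.05 in LM3, against 2.19 and 2.55 in RBE. HOXB3 (chr17:48548870-48604912, minus strand), known for its roles in the hindbrain and in blood progenitors, was at 1.18 and 1.48 in LM3, below both RBE values given above. HOXB3, HOXB4 and HOXB6 share exon bases (7.9% of HOXB3, 17.1% of HOXB4 and 16.6% of HOXB6 with any gene of the same strand), because the annotated HOXB3 spans its neighbours.

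HOXB7 split the lines most sharply within this cluster. HOXB7 (chr17:48607227-48633572, minus strand), a gene often expressed in carcinomas, was at 9.55 and 8.18 FPKM in LM3 and listed at 0 in both RBE libraries, and it shares no exon base with another listed gene. HOXB8, beside it, was at 0.292 and 0.557 in LM3, against 0 and 0.0251 in RBE. The 5' genes HOXB9 and HOXB13, the latter a prostate and hindgut gene, went the other way at trace levels: HOXB9 was at 0.0692 and 0.117 in LM3, against 0.304 and 0.453 in RBE, and HOXB13 at 0 in LM3, against 0.205 and 0.248 in RBE. HOXB2 was at 0 in LM3, against 0.134 and 0.126 in RBE, HOXB4 between 0.101 and 0.331 in the 4 libraries, and HOXB1 at 0 in all.

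In the HOXC cluster LM3 carried HOXC9, HOXC6 and HOXC8, and RBE reached 1 FPKM for no member. HOXC9 (chr12:53994895-54003337, plus strand), a thoracic gene that also acts in motor neurons, was at 2.95 and 2.38 FPKM in LM3, against 0 and 0.0505 in RBE. HOXC6 was at 2.09 and 1.25 in LM3, against 0.380 and 0.793 in RBE, and HOXC8 at 1.36 and 0.671 in LM3, against 0.0573 and 0 in RBE. HOXC10 and HOXC11 followed below 1 FPKM, with 0.614 and 0.446 and with 0.247 and 0.298 in LM3, and at most 0.0222 in RBE. HOXC4 (0.312 to 0.532 FPKM), HOXC5 (0.0508 to 0.147), HOXC12 (at most 0.0138) and HOXC13 (at most 0.106) were low in all 4 libraries. HOXC4, HOXC5 and HOXC6 belong to overlapping models, with 17.8%, 59.9% and 15.7% of their exon bases shared on the same strand.

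The HOXD cluster stayed near 0 in both lines. HOXD4, HOXD8, HOXD9, HOXD10, HOXD11 and HOXD13 were listed at 0 in all 4 libraries. HOXD12 lay between 0.0331 and 0.189 FPKM, HOXD3 reached 0.0872 in RBE with si-NC alone, and HOXD1 was at 0.110 and 0.165 in LM3 and at 0 in RBE. HOXD4 and HOXD3 share 80.5% and 62.2% of their exon bases with other models of the strand, so that a value of 0 there may also reflect how reads were assigned.

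FPKM are scaled by length and can be summed over genes. All 39 members together held 56.1 and 52.3 FPKM in LM3, against 16.0 and 15.4 in RBE. The HOXA cluster held 31.8 and 30.5 in LM3, against 2.80 and 2.40 in RBE, which was 57.5% of the HOX sum of LM3 and 16.5% of that of RBE. The HOXB cluster held 16.2 and 15.9 against 11.8 and 11.6, or 29.6% and 74.3% of the sums. The HOXC cluster held 7.88 and 5.65 against 1.23 and 1.26, and the HOXD cluster 0.286 and 0.198 against 0.189 and 0.201. The lines did not overlap for HOXA, HOXB and HOXC, with an exact two-sided permutation p of 0.333 each, the smallest that 2 libraries against 2 can give. For HOXD they overlapped (exact permutation p = 0.667). The HOXB order rested on HOXB7: without it the sum was lower in LM3 (LM3 minus RBE -4.48 FPKM, against 4.39 with it).

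By position, paralog groups 1 to 4 summed to 23.5 and 21.9 FPKM in LM3, against 6.51 and 5.99 in RBE, and groups 5 to 8 to 24.2 and 21.1 against 7.93 and 8.14. Groups 9 to 13 summed to 8.49 and 9.32 in LM3, against 1.55 and 1.28 in RBE. The shares of the 3 classes in the HOX sum were 41.8%, 41.7% and 16.4% in LM3 and 39.8%, 51.2% and 9.02% in RBE. Group 3 was the largest in both lines, at 15.6 and 15.3 FPKM in LM3, nearly all HOXA3, and at 5.65 and 5.43 in RBE, nearly all HOXB3. The same paralog group was thus filled from different clusters.

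**Figure D2:**
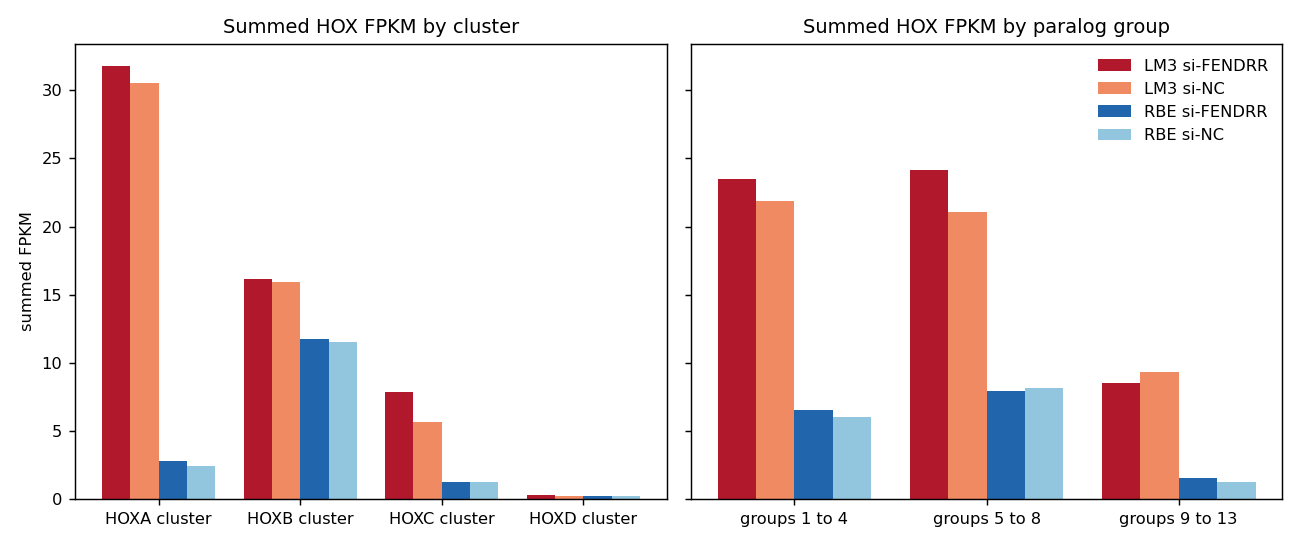
Summed FPKM of the members in each of the 4 libraries, by cluster on the left and by paralog group on the right, with 1 bar per library. In LM3 the HOXA bars reach 31.8 and 30.5, above HOXB, whereas in RBE the HOXB bars reach 11.8 and 11.6 and HOXA stays at 2.80 and 2.40.

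The difference between the lines was tested by limma on log2(FPKM + 1) over 15930 genes, with terms for line and transfection. Because the libraries of each line received different transfections and are not replicate cultures of 1 condition, the test measures how alike the line difference was under both. Of 15 members tested, 10 were called higher in LM3 at an adjusted p under 0.05 and 1 in RBE, where 32.3% of all genes were called higher in LM3 and 26.4% in RBE. FPKM of the lines did not overlap for 12 of the 15 with LM3 above and 2 with RBE above, against 44.3% and 37.4% of all genes. A gene reached the test when any library was at 1 FPKM, and members seen in 1 line alone had to differ, so these counts are a description of the tested members. Without a filter on low values 32 members could be tested, of which 14 were called higher in LM3 and 2 in RBE, against 13.2% and 11.1% of all genes. The median log2 difference of the 15 members was 1.01, and 0.09 over all genes tested.

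The largest differences were those of HOXA3 (log2 difference 3.75 ± 0.13 SE, n = 2 libraries per line, adjusted p = 0.000771 by limma) and HOXB7 (3.30 ± 0.14, adjusted p = 0.00103 by limma). HOXA2 followed at 2.44 ± 0.15 (adjusted p = 0.00164 by limma), HOXC9 at 1.83 ± 0.16 (adjusted p = 0.00316 by limma), HOXA11 at 1.76 ± 0.19 (adjusted p = 0.00451 by limma) and HOXA13 at 1.23 ± 0.15 (adjusted p = 0.006 by limma). HOXB3 was the member called higher in RBE, at -1.45 ± 0.15 (adjusted p = 0.00394 by limma). These 7 differences kept their direction when any library was left out, with that of HOXA11 between 1.52 and 1.99. HOXB7, HOXA11 and HOXA13 were at 0 in both RBE libraries. A fit without an LM3 library therefore holds no spread for these genes, and a call there could hardly fail. Log2 differences of genes listed at 0 in RBE depend on the pseudocount and are no bound: that of HOXB7 was 6.48 at a pseudocount of 0.1 and 1.47 at 5.

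The other calls were nearer to the threshold. HOXA5 differed by 1.01 ± 0.16 (adjusted p = 0.0109 by limma), HOXA6 by 0.98 ± 0.15 (adjusted p = 0.00958), HOXA4 by 1.02 ± 0.20 (adjusted p = 0.0178) and HOXC8 by 0.95 ± 0.19 (adjusted p = 0.0179). All 4 calls depended on single libraries. Without the RBE si-NC library the adjusted p by limma were 0.0529 for HOXA5, 0.0649 for HOXA6, 0.109 for HOXA4 and 0.127 for HOXC8, and 7 members in all were called. Without the RBE si-FENDRR library they were 0.0582 for HOXA5, 0.107 for HOXA4 and 0.111 for HOXC8. Without the LM3 si-FENDRR library HOXA6 had an adjusted p of 0.0983 by limma and HOXA4 and HOXC8 fell below the filter, and without the LM3 si-NC library HOXA6 had 0.0718.

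Members not called were HOXA10 (0.64 ± 0.22, adjusted p = 0.0684 by limma), HOXC6 (0.75 ± 0.26, adjusted p = 0.0708), HOXB5 (-0.27 ± 0.14, adjusted p = 0.166) and HOXB6 (0.08 ± 0.14, adjusted p = 0.627). HOXA10 and HOXC6 passed when the transfection term was left out, at adjusted p of 0.0408 and 0.0461 by limma. For HOXB6 the difference was smaller than its error. A p over the threshold does not show that the lines were alike in these genes.

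**Figure D3:**
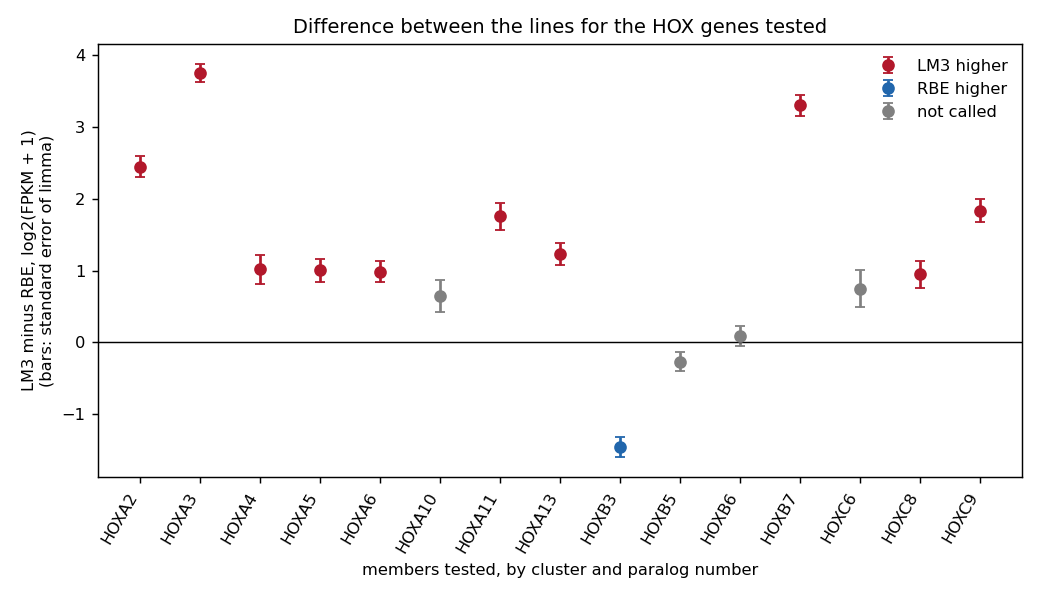
Difference between the lines (LM3 minus RBE) on the log2(FPKM + 1) scale for the 15 members tested, with bars for the standard error of limma, red for those called higher in LM3, blue for RBE and grey for those not called. HOXA3 at 3.75 and HOXB7 at 3.30 stand highest, HOXB3 at -1.45 is the single call below 0, and HOXB6 lies at 0.08.

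Between si-FENDRR and si-NC no member was called. By limma over both lines 0 of the 15 members and 0% of all genes were called. None of the 15 had an unadjusted p under 0.05, against 657 of the 15930 genes, and the smallest adjusted p of a member was 0.959. The largest member difference was that of HOXA6, higher with si-FENDRR in both lines (0.31 ± 0.15 SE, n = 2 lines, unadjusted p = 0.106 and adjusted p = 0.959 by limma). Within a line there is no test. FPKM + 1 differed at least 2-fold for 0 of the 15 tested members in LM3, where 2.13% of all tested genes did, and for 0 in RBE, where 1.75% did. On this scale the other 24 members, under 1 FPKM throughout, could not differ 2-fold. Adding 1 narrows the ratio of low values. Of the 15, HOXA4 (1.40 and 0.702 FPKM) and HOXC8 (1.36 and 0.671) had the widest ratios of FPKM itself in LM3. In RBE, HOXA6 (0.991 and 0.488 FPKM), HOXA10 (0.728 and 0.359) and HOXC6 (0.380 and 0.793) also had wide ratios of FPKM itself, all under 1 FPKM. On the FPKM + 1 scale the widest ratios among tested members were 1.41-fold in LM3, for HOXA4 and HOXC8, both higher with si-FENDRR. In RBE the widest was 1.34-fold, for HOXA6. In LM3, HOXA11 went from 2.97 FPKM under si-NC to 1.88 under si-FENDRR, its neighbour HOXA10 from 1.65 to 1.16 and HOXA13 from 1.34 to 1.36.

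HOX clusters also encode noncoding RNAs, most of them transcribed from the opposite strand. Of 24 such genes in a list of antisense, intergenic and microRNA genes, 7 reached 1 FPKM, 5 called higher in LM3 and 2 in RBE by limma (32.3% and 26.4% of all genes), and 11 were listed at 0 throughout, the 6 microRNA genes among them. Libraries came from an mRNA kit, in which mature microRNAs are not measured. HOXA-AS2, opposite HOXA3, was the most abundant, at 19.1 and 18.2 FPKM in LM3, against 0.158 and 0.239 in RBE (4.04 ± 0.13, adjusted p = 0.000725 by limma). HOXA11-AS was at 2.02 and 2.79 in LM3 and 0 in RBE (1.76 ± 0.17, adjusted p = 0.00361 by limma). HOTTIP, which is known to keep 5' HOXA genes active, was at 0.793 and 1.204 in LM3 and 0 in RBE (0.99 ± 0.17, adjusted p = 0.0132 by limma). These RNAs, like HOXA3, HOXA11 and HOXA13, were near or at 0 in RBE.

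HAGLR, opposite HOXD1, did not go with its cluster. HAGLR was at 6.32 and 6.26 FPKM in LM3, against 0.109 and 0.0841 in RBE (2.73 ± 0.14, adjusted p = 0.00125 by limma), while HOXD1 was at most 0.165. The annotated gene spans chr2:176173195-176188958 on the minus strand and so covers the HOXD1 promoter printed above. In the HOXC cluster, HOXC-AS1 was at 1.23 and 2.15 in LM3, against 0.0455 and 0 in RBE (1.37 ± 0.21, adjusted p = 0.00938 by limma). HOTAIR, a regulator of chromatin read from between HOXC11 and HOXC12, stayed under 1 FPKM, at 0.677 and 0.694 in LM3, against 0 and 0.0475 in RBE. LM3 lay above RBE without overlap for these 3 RNAs, as for 44.3% of all genes tested, and HOTAIR was below the filter for a test.

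The tested noncoding RNAs of the HOXB cluster showed the reverse order. HOXB-AS1, opposite HOXB2 and HOXB3, was at 0.0842 and 0 FPKM in LM3, against 0.978 and 1.71 in RBE (-1.15 ± 0.21, adjusted p = 0.0148 by limma). HOXB-AS3, opposite HOXB5 and HOXB6, was at 0.707 and 1.56 in LM3, against 1.51 and 2.64 in RBE (-0.53 ± 0.14, adjusted p = 0.0365 by limma), with ranges that overlapped. With si-FENDRR, HOXB-AS3 was lower than with si-NC in each line (-0.56 ± 0.14, n = 2 lines), with an unadjusted p of 0.0166 and an adjusted p of 0.959 by limma, so this did not pass. The sources used here give no strand setting for the libraries. Reads of exon bases shared with the opposite strand therefore cannot be told apart: these made up 11.9% of HOXA-AS2, 27.4% of HOXA11-AS, 1.7% of HOTTIP, 13.8% of HAGLR, 29.6% of HOXB-AS1, 30.1% of HOXB-AS3 and 58.1% of HOXD1. Such bases were found in 19 of the 39 members. They made up 62.5% of HOXA7, 39.3% of HOXA6, 31.1% of HOXA11, 16.3% of HOXA4 and 15.4% of HOXA3.

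**Figure D4:**
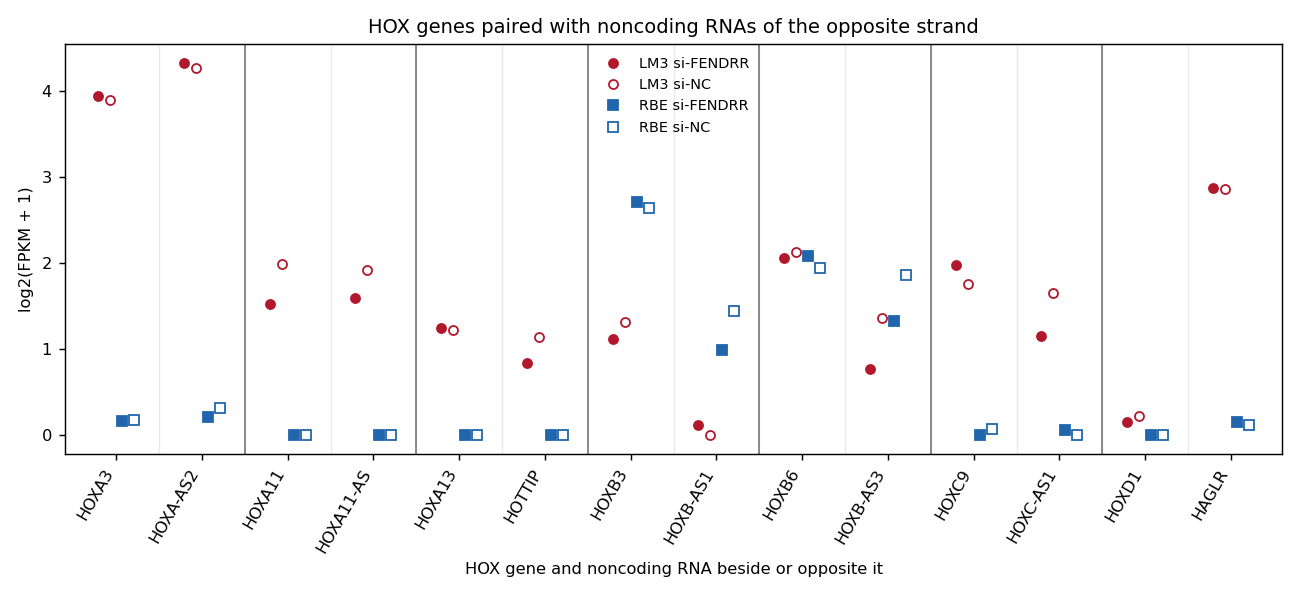
Levels as log2(FPKM + 1) of 7 HOX genes, each followed by a noncoding RNA of the opposite strand of its cluster, with 1 point per library. HOXA3 with HOXA-AS2, HOXA11 with HOXA11-AS and HOXA13 with HOTTIP are seen in LM3, HOXB3 with HOXB-AS1 are higher in RBE, and HAGLR reaches 6.32 FPKM in LM3 where HOXD1 is at most 0.165.

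HOX proteins bind DNA together with homeodomain cofactors of the PBX, MEIS and PKNOX families. Of 10 cofactor genes 8 were tested, 3 called higher in LM3 and 4 in RBE, against 32.3% and 26.4% of all genes. PBX2 was at 8.10 and 8.18 FPKM in LM3, against 23.1 and 22.0 in RBE (-1.36 ± 0.12, adjusted p = 0.00293 by limma), and PBX3 at 12.7 and 9.94 against 13.9 and 11.1, which was not called (adjusted p = 0.373). The partners of PBX proteins were split: MEIS3 was at 23.3 and 27.1 in LM3, against 9.23 and 7.87 in RBE (1.46 ± 0.16, adjusted p = 0.00445 by limma), PKNOX1 at 5.17 and 5.22 against 2.36 and 2.11, and MEIS1 at about 2 and 2.15 against 1.03 and 0.859. MEIS2 was at 6.36 and 5.10 in LM3, against 8.66 and 7.98 in RBE, and the PBX-binding protein gene PBXIP1 at 26.3 and 31.6 against 42.0 and 45.7.

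ParaHox genes are relatives of the HOX clusters, and some of them pattern the gut. Among these genes, CDX2 was at 2.24 and 2.65 FPKM in LM3, against 0 and 0.0224 in RBE (1.77 ± 0.15, adjusted p = 0.00292 by limma). CDX2 is the intestinal member that activates HOX genes in the embryo. PDX1, the pancreatic and duodenal member, had the opposite order, at 0.149 and 0.0860 in LM3, against 0.957 and 1.02 in RBE (-0.83 ± 0.16, adjusted p = 0.016 by limma). The other 4 genes of this list were at 0 in all libraries.

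Retinoic acid induces HOX genes, the 3' ones first. Of 17 genes of retinoid signalling 12 were tested, 8 called higher in LM3 and 3 in RBE, against 32.3% and 26.4% of all genes, with a median log2 difference of 0.88. The receptor gene RARB, itself a retinoic acid target, was at 7.85 and 7.09 FPKM in LM3, against 1.21 and 1.28 in RBE (1.91 ± 0.13, adjusted p = 0.00207 by limma). The uptake receptor STRA6 was at 34.6 and 38.8 against 1.89 and 2.19, the binding protein CRABP2 at 32.0 and 42.8 against 4.51 and 3.91, and the partner receptor RXRA at 24.7 and 28.9 against 9.98 and 10.0. The enzymes that make retinoic acid differed in kind. ALDH1A1 was at 361 and 392 in LM3, against 64.4 and 72.5 in RBE, ALDH1A2 at 1.63 and 1.87 against 4.82 and 3.77, and ALDH1A3 at 0 in LM3, against 118 and 123 in RBE (-6.92 ± 0.12, adjusted p = 0.000584 by limma).

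**Figure D5:**
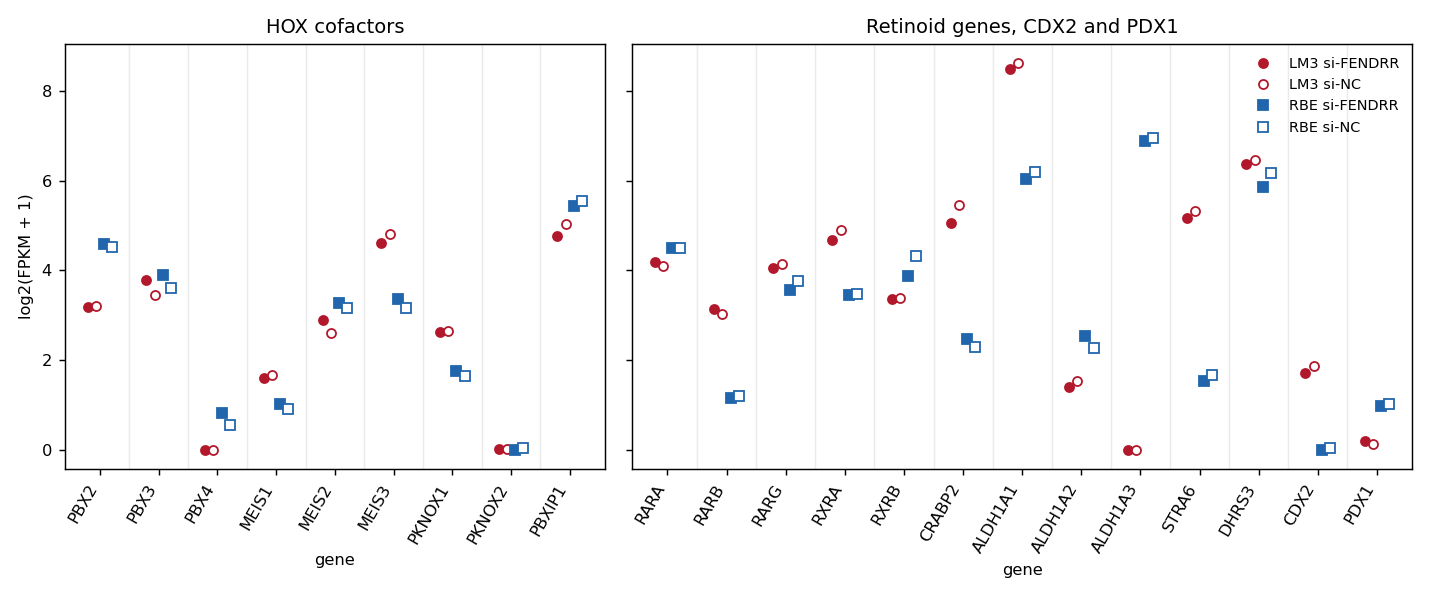
Levels as log2(FPKM + 1) of cofactor genes on the left and of tested retinoid and ParaHox genes on the right, with 1 point per library. PBX2 reaches 23.1 and 22.0 FPKM in RBE and 8.10 and 8.18 in LM3, ALDH1A3 is at 0 in LM3, and STRA6, CRABP2, RARB and CDX2 are higher in LM3.

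Genes that flank the clusters differed in both directions. Of 20 such genes 15 were tested, 3 called higher in LM3 and 5 in RBE (32.3% and 26.4% of all genes), with a median log2 difference of -0.02 against 0.09 over all genes tested. Beside HOXA, the homeobox gene EVX1, which lies past HOXA13, was at 0.979 and 1.37 FPKM in LM3, against 0.0437 and 0.0778 in RBE (1.03 ± 0.16, adjusted p = 0.0104 by limma). SKAP2, on the opposite side of the cluster, was at 42.0 and 42.2 in LM3, against 12.1 and 10.5 in RBE, and SNX10 beyond it at 4.90 and 6.08 against 2.40 and 2.64. Genes called higher in LM3 thus lay on both sides of the HOXA cluster. HIBADH and JAZF1, beyond EVX1, were not called (adjusted p = 0.709 and 0.0918 by limma). Near HOXB, TTLL6 was at 0.174 and 0.220 in LM3, against 1.62 and 1.44 in RBE, SNX11 at 8.50 and 9.68 against 18.9 and 21.1, and CBX1 at 23.9 and 23.0 against 41.2 and 39.8. Near HOXC, SMUG1 was at 15.0 and 10.4 against 24.0 and 28.6, and CBX5 at 17.5 and 14.7 against 24.3 and 25.5. Beside HOXD, EVX2, the homeobox gene past HOXD13, was listed at 0 in all 4 libraries, while MTX2 was at 17.8 and 22.1 in LM3, against 20.4 and 19.7 in RBE and LNPK at 4.81 and 4.96 against 3.67 and 3.55. EVX2, HIBADH, JAZF1, MTX2 and LNPK were named after their values were seen. HIBADH, beyond EVX1, was at 31.8 and 90.1 FPKM in LM3, against 47.5 and 46.8 in RBE.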

How the data were processed

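Messenger RNA of LM3 and RBE cells was sequenced with 1 library per line and transfection. The authors deposited FPKM per gene, per the file headers. The 4 single-library files hold the same values as the series table. FastQC was used on the reads and HISAT2 for alignment to hg38, per the submitters' processing notes. For versions, the FPKM program and the annotation the sources used here give nothing, and the labels name no independent cultures. Coordinates are those of the table. All 39 members matched GENCODE release 29 on GRCh38 by identifier, 38 with the same start and end, and exon overlaps were taken from that release.

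Genes at 1 FPKM or more in at least 1 library were tested with limma version 3.58.1 in R version 4.3.3 on log2(FPKM + 1), with terms for line and transfection, a trended prior variance and Benjamini-Hochberg adjustment over 15930 genes at 0.05. This left 1 residual degree of freedom. Fold changes on this scale understate those of low genes. Alternatives covered the pseudocount, the filter, the scaling of libraries, the prior variance, the model terms and each library left out. Members are named, and of each other list up to 8 genes with the largest difference between the lines, except that values of some genes are not reported here. The members and lists were chosen with earlier results of these data known. Promoter sequences are from RefSeq.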

Additional observations from a re-analysis of the deposited data

Results flagged for a closer look

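Changes with si-FENDRR of at least 1.2-fold on the FPKM + 1 scale went opposite ways in the 2 lines for 2 tested members. With 1 library per line and transfection this difference was not tested. The share of all genes that meet this rule was not computed, so the count is a description only. In RBE both genes were under 1 FPKM, HOXA10 at 0.728 and 0.359 and HOXC6 at 0.380 and 0.793. For HOXA10 the log2 change was -0.29 in LM3 and 0.35 in RBE, a difference of -0.64. For HOXC6 it was 0.46 in LM3 and -0.38 in RBE, a difference of 0.84.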

How the results depend on the processing

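Of 176 recomputed member differences 165 kept their direction and their side of the threshold, 9 no longer passed when 1 library was left out, 2 passed when the transfection term was left out, and 0 changed direction. Fits without 1 library had the line term alone, and where a line kept 1 library it was assumed to vary like the other. With both terms, 3 libraries leave no residual degrees of freedom. Without 1 library, 5615 to 7009 genes were called between the lines, against 9348 with all 4, with 3003 to 3915 higher in LM3 and 2612 to 3094 in RBE, and 7 to 10 members, 6 to 9 of them higher in LM3. The 0 calls between transfections stayed at 0 under the 7 alternatives and without the replicate block, that is without the cell line term, where the smallest adjusted p by limma was 1 (0.346 to 1 over all of these). At a pseudocount of 0.1, 1 member differed at least 2-fold within LM3 (HOXD12) and 1 within RBE (HOXA7), both under 1 FPKM. With no filter, 2 members were called higher in RBE. LM3 minus RBE of the HOXA sum was 28.6 FPKM, 27.5 with median-of-ratios scaling and 14.6 without HOXA3. That of HOXB was 4.39, 3.47 with median-of-ratios scaling, 4.69 with equal totals and -4.48 without HOXB7. That of HOXC was 5.52 and 2.88 without HOXC9, and that of HOXD 0.0466 and 0.0936 without HOXD12.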

Other observations

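Regulators of chromatin that keep HOX genes silent or active were expressed in both lines. Of 23 such genes, all tested, 7 were called higher in LM3 and 3 in RBE by limma, against 32.3% and 26.4% of all genes, and the median log2 difference was 0.15, against 0.09 over all genes. On the Polycomb side, the methyltransferase EZH2 was at 23.2 and 20.5 FPKM in LM3, against 9.09 and 9.28 in RBE, and the reader CBX2 at 11.1 and 11.2 against 3.20 and 3.60. The demethylase KDM6B, which removes the Polycomb mark, was at 11.1 and 14.6 against 4.23 and 4.37. On the trithorax side, KMT2A was at 5.46 and 5.15 in LM3, against 2.37 and 2.88 in RBE, and KMT2B at 10.5 and 11.8 against 5.81 and 5.74, while the shared subunit ASH2L was at 6.26 and 6.21 against 16.5 and 17.9. The insulator protein gene CTCF was at 11.7 and 12.0 in LM3 and 18.3 in both RBE libraries. Not called were the second methyltransferase EZH1 (0.24, adjusted p = 0.167), the Polycomb subunits EED (-0.49, adjusted p = 0.0509) and SUZ12 (0.41, adjusted p = 0.0672) and the second demethylase KDM6A (-0.31, adjusted p = 0.126), with log2 differences and adjusted p by limma. These 4 genes were named after their values were seen.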
